A study of Homo sapiens with 16 samples.

Results

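The aminoacyl-tRNA synthetases are the enzymes that join each amino acid to its transfer RNA, and their messenger RNAs are described here in HT-1080, a human fibrosarcoma cell line long in culture. The members were taken by symbol from a fixed list of 36 genes, and all 36 were found among the 17552 genes with values. They comprise 20 genes for cytosolic enzymes and 16 for mitochondrial enzymes. GARS and KARS each make both forms from 1 gene and were counted as cytosolic. The list is defined by enzyme function and applies no threshold on a measured value.

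Cells of 4 kinds were each sampled untreated and after 24 h with 10 µM erastin, giving 8 groups of 2 libraries. The siNS cells received a non-targeting small interfering RNA. The siDCAF8 cells received siRNA against DCAF8, a substrate receptor of CRL4 ubiquitin ligases. The cells labelled siDCAF8+siLSH received siRNA against DCAF8 and against LSH, the chromatin remodeller encoded by HELLS, and that name is used below as their label. The oeWDR76 cells overexpressed WDR76, a WD40-repeat protein, and were set against siNS because no library with an empty vector was among those analysed. Erastin blocks the cystine and glutamate exchanger and is used to induce ferroptosis, an iron-dependent form of cell death. All groups share the 1 parental line, and the labels do not say how many siRNAs were used or whether both libraries of any group were grown as separate cultures. The p-values therefore measure only the spread between these libraries, which may be technical.

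Synthetases recognise a particular amino acid and its transfer RNAs, with the bifunctional EPRS serving both glutamate and proline, and the cytosolic and mitochondrial sets are encoded mostly by separate nuclear genes. Several cytosolic enzymes assemble with the scaffold proteins AIMP1, AIMP2 and EEF1E1 into the multisynthetase complex. When uncharged transfer RNAs accumulate, the kinase GCN2 raises translation of the transcription factor ATF4, and many cytosolic synthetase genes are known ATF4 targets.

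Values are FPKM, fragments per kilobase of transcript scaled to library size, so levels can be compared between genes per length. Differences are on the scale of log2(FPKM + 1), which understates the change of low genes. A gene was called where limma's moderated test gave a Benjamini-Hochberg adjusted p under 0.05 over 11260 genes, and "rose", "fell", "higher" and "lower" with a count refer to such calls. Shares of all tested genes were counted in this fit at this adjusted p only, not at an unadjusted p or under alternative fits. Groups with no overlap are described for members named by the size of a called difference. With 2 libraries per group this adds little to the call, and it was not counted over all tested genes. In bulk RNA, fewer cells of a kind and less RNA per cell cannot be told apart.

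The library totals were 436290 to 503867 FPKM, and the spacing of low values corresponded to roughly 16300000 to 17300000 fragments per library. The 4 oeWDR76 libraries stood apart from the others: their log2 values rose by 0.19 to 0.23 per 10% of gene GC content relative to the average library, against -0.16 to 0.03 in the other libraries. DCAF8 was 3.12-fold lower in untreated siDCAF8 than in siNS (limma adjusted p = 1.41e-10) and 2.43-fold lower in siDCAF8+siLSH (limma adjusted p = 1.06e-09). WDR76 was 64.0-fold higher in oeWDR76 (limma adjusted p = 3.89e-17). HELLS was 1.61-fold lower in untreated siDCAF8+siLSH than in siDCAF8 (limma adjusted p = 1.59e-06), but its 4.05 and 4.07 FPKM there lay next to the 4.05 and 3.98 FPKM of untreated siNS, so the label was not borne out against siNS at the level of this message without erastin. With erastin HELLS was 1.38-fold lower than in siNS (limma adjusted p = 2.14e-05). All 7 mesenchymal markers had a mean of at least 1 FPKM and summed to 3060 to 4690 FPKM per library. Epithelial markers summed to at most 5.9 FPKM, endothelial markers to at most 4.35 FPKM and leukocyte markers to at most 3.78 FPKM. EPCAM, ESRP1 and CD79A were under 0.1 FPKM on average. A mean of at least 1 FPKM was reached by 1 of 4 epithelial, 1 of 3 endothelial and 2 of 4 leukocyte markers.

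Promoter sequences are shown for the members that carry the core of the C/EBP-ATF response element, the site at which ATF4 dimers are known to bind amino acid response genes. The 8-base core TGATGNAA was searched on both strands, so that its reverse complement TTNCATCA also counted, from 250 bases before to 50 bases after each gene's start in RefSeq on GRCh38.p14. Windows were given for 30 of the 36 members, all but AARS2, DARS, LARS, VARS, VARS2 and YARS. The core lay in windows of 8 of these 30 (26.7%), against 2.74% of the 9283 tested genes with a window and 3.62% of all 35116 windows. Of the 8, 7 encode cytosolic enzymes. Each line gives 30 bases, 5′ to 3′ on the gene's strand, with the matched core in capitals.
AARS: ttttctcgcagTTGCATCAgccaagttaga
CARS: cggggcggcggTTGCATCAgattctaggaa
GARS: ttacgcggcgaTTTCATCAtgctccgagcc
IARS: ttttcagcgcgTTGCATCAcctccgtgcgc
MARS: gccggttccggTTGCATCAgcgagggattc
NARS: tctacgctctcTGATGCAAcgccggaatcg
TARS: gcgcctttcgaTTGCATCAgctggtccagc
YARS2: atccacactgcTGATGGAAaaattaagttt

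These windows lie at chr16:70289675-70289704 (minus strand) for AARS, chr11:3057407-3057436 (minus) for CARS, chr7:30594834-30594863 (plus) for GARS and chr9:92293692-92293721 (minus) for IARS. Those of MARS, NARS, TARS and YARS2 lie at chr12:57488053-57488082 (plus), chr18:57621804-57621833 (minus), chr5:33440956-33440985 (plus) and chr12:32756076-32756105 (minus). In 5 of the 8, the core read TTGCATCA on the gene's strand, and NARS carried the reverse complement of the same letters. Counted from the RefSeq start, the core began at -187 in AARS and -197 in YARS2, at -33 in GARS and -13 in IARS, and within 4 bases before to 15 bases after the start in CARS, MARS, TARS and NARS. A match is a description of these letters, not a measured binding site.

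Cytosolic synthetases were expressed at higher levels per length than mitochondrial ones in every library. The median over the 20 cytosolic genes was 84.4 to 117 FPKM per library, and that over the 16 mitochondrial genes 9.03 to 13.8 FPKM. Among cytosolic enzymes the values ran from 30.73 FPKM for FARSB, the beta subunit of phenylalanyl-tRNA synthetase, to 305.93 FPKM for GARS, the glycyl enzyme. The mitochondrial values ran from 1.84 FPKM for PARS2, the prolyl enzyme, to 73.35 FPKM for IARS2, the isoleucyl enzyme. The lowest member value corresponded to about 74 reads. HARS and HARS2 overlap on opposite strands over 302 bases, and MARS, SARS2 and YARS also share bases with neighbouring genes. The sources used here do not give whether counting used strand, so reads could be split between these genes. VARS and VARS2 were placed on alternate scaffolds of chromosome 6, and whether this affected their values was not tested.

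In siNS cells, erastin lowered synthetase messages more often than it raised them, and AARS and CARS moved furthest. Of the 20 cytosolic members 9 fell and 1 rose, and of the 16 mitochondrial members 4 fell and 1 rose. Over all tested genes 22.4% fell and 15.1% rose, 37.5% together. The median log2 difference was -0.15 over the cytosolic members, 0.00 over the mitochondrial members and -0.03 over all tested genes.

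AARS, the alanyl enzyme (chromosome 16, 70252394 to 70289509, minus strand, GRCh38), had 154.03 and 159.85 FPKM in untreated siNS and 81.62 and 85.74 FPKM with erastin. Its groups were well separated, and it was 1.87-fold lower with erastin (log2 -0.90, SE 0.07, limma adjusted p = 8.23e-08). CARS, the cysteinyl enzyme (chromosome 11, 3000922 to 3057451, minus strand), went from 71.01 and 72.73 FPKM to 37.8 and 39.73 FPKM. This was 1.83-fold lower (log2 -0.87, SE 0.06, limma adjusted p = 2.95e-08). SARS, the seryl enzyme (chromosome 1, 109213893 to 109238182, plus strand), had 126.21 and 132.8 FPKM untreated and 88.66 and 94.52 FPKM with erastin. It fell 1.41-fold (log2 -0.50, SE 0.07, limma adjusted p = 2.92e-05), again with no overlap between the groups. PARS2 (chromosome 1, 54756898 to 54764553, minus strand) had 2.77 and 3.0 FPKM untreated and 2.08 and 1.84 FPKM with erastin. It was 1.31-fold lower (log2 -0.39, SE 0.10, limma adjusted p = 0.00431).

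The other members that fell lay between -0.33 and -0.17 on the log2 scale and were MARS, GARS, YARS, TARS, NARS and QARS among cytosolic enzymes and SARS2, TARS2 and VARS2 among mitochondrial ones. The members that rose were WARS, the tryptophanyl enzyme and a known interferon-inducible gene, by 0.37 (limma adjusted p = 0.00429), and LARS2, the mitochondrial leucyl enzyme, by 0.33 (limma adjusted p = 0.000599). Of the 8 enzymes of the multisynthetase complex 2 fell, and of the 12 other cytosolic members 7 fell. The number called went from 15 to 9 without siNS replicate 2. After correction for GC content and length, 9 members were lower and 5 higher, and with median-ratio scaling 9 were lower and 3 higher.

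In siDCAF8 cells, erastin raised most cytosolic synthetase messages. Of the cytosolic members 12 rose and 2 fell, and of the mitochondrial members 3 rose and 3 fell, where 18.3% of all tested genes rose and 22.5% fell, 40.9% together. The median log2 difference was 0.28 over the cytosolic members, -0.06 over the mitochondrial members and -0.02 over all tested genes. The summed cytosolic level was 2084.55 and 2011.72 FPKM untreated and 2496.2 and 2306.52 FPKM with erastin, while in siNS it was 2081.72 and 2090.47 FPKM untreated and 1758.4 and 1855.95 FPKM with erastin.

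**Figure D1:**
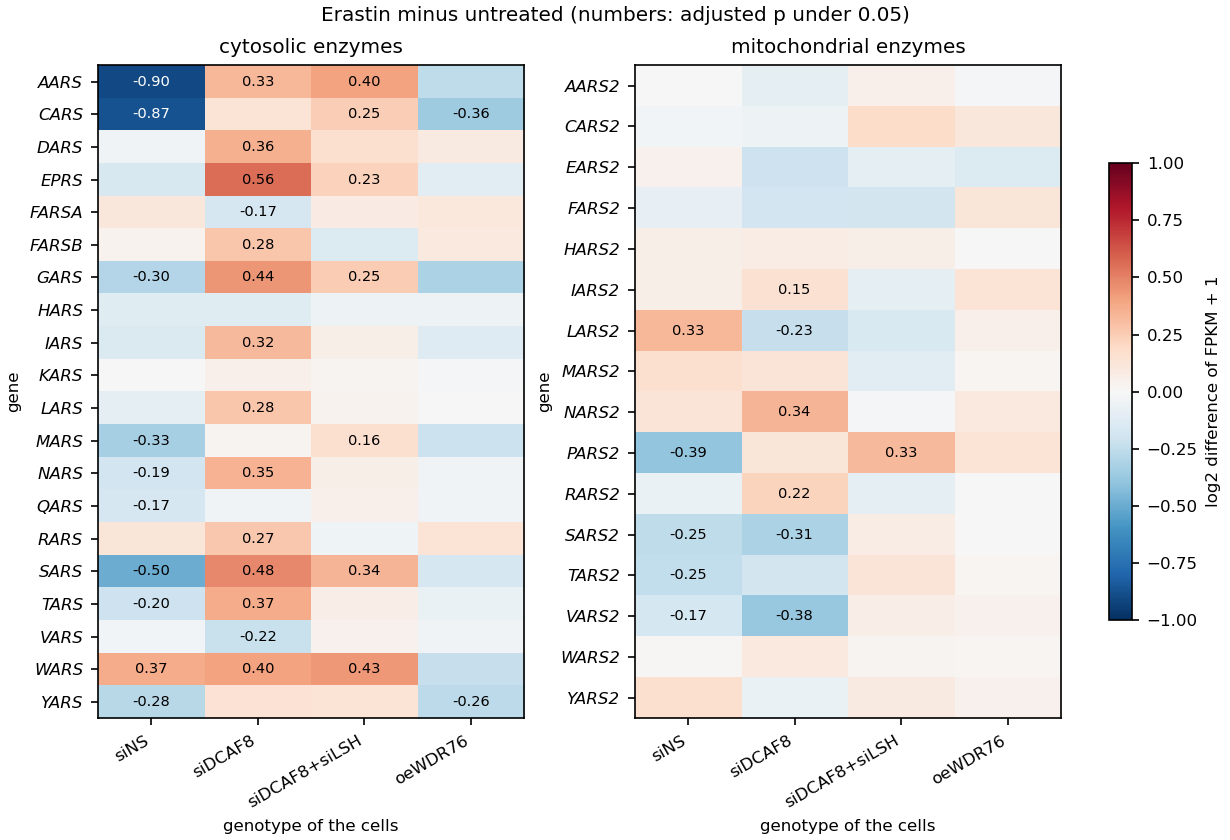
Log2 difference of FPKM + 1 between erastin-treated and untreated cells for each of the 36 members (rows) in each of the 4 genotypes (columns), with cytosolic enzymes in 1 panel and mitochondrial enzymes in the other and a number in each cell with an adjusted p under 0.05. In siNS 13 members were lower and 2 higher, against 22.4% and 15.1% of all tested genes. In siDCAF8 15 were higher and 5 lower, against 18.3% and 22.5%. In oeWDR76 2 were lower and 0 higher, against 0.977% and 0.471%. In siDCAF8+siLSH 8 were higher and 0 lower, against 10.6% and 9.54%.

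EPRS, the glutamyl and prolyl enzyme of the complex (chromosome 1, 219968364 to 220046658, minus strand), had 74.15 and 78.45 FPKM in untreated siDCAF8 and 121.9 and 104.39 FPKM with erastin. It rose 1.47-fold (log2 0.56, SE 0.07, limma adjusted p = 2.40e-05), and its groups did not overlap. SARS had 120.83 and 119.25 FPKM untreated and 176.5 and 159.18 FPKM with erastin, 1.39-fold higher (log2 0.48, SE 0.07, limma adjusted p = 4.54e-05). GARS (chromosome 7, 30594735 to 30634033, plus strand) had 220.09 and 189.34 FPKM untreated and 305.93 and 250.58 FPKM with erastin. Its untreated and treated libraries did not overlap, although those of each group differed from one another, and it rose 1.35-fold (log2 0.44, SE 0.08, limma adjusted p = 0.000437). WARS (chromosome 14, 100333788 to 100376343, minus strand) had 50.5 and 45.48 FPKM untreated and 72.67 and 55.7 FPKM with erastin. It was 1.32-fold higher (log2 0.40, SE 0.09, limma adjusted p = 0.00243), a call lost without siDCAF8/Erastin replicate 1 (limma adjusted p = 0.0542).

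The other cytosolic members that rose were TARS, DARS, NARS, AARS, IARS, FARSB, LARS and RARS, by 0.27 to 0.37, and the mitochondrial ones were NARS2, RARS2 and IARS2, by 0.15 to 0.34. VARS2, SARS2, LARS2, VARS and FARSA fell, by 0.17 to 0.38. Of the 8 complex enzymes 5 rose and none fell. The 15 that rose had a median GC content of 43.6% and the 5 that fell 61.2%. After the correction for GC content and length, 13 of the 15 rises and 2 of the 5 falls were still called, with 16 higher and 2 lower in all.

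The same members could go in opposite directions in siNS and siDCAF8. AARS, GARS, NARS, SARS and TARS fell in siNS and rose in siDCAF8, which is 38.5% of the 13 that fell in siNS and 33.3% of the 15 that rose in siDCAF8. Over all tested genes, 181 did so, which is 7.19% of those that fell in siNS and 8.77% of those that rose in siDCAF8. LARS2 rose in siNS and fell in siDCAF8, while WARS rose in both. These 2 comparisons use different libraries.

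**Figure D2:**
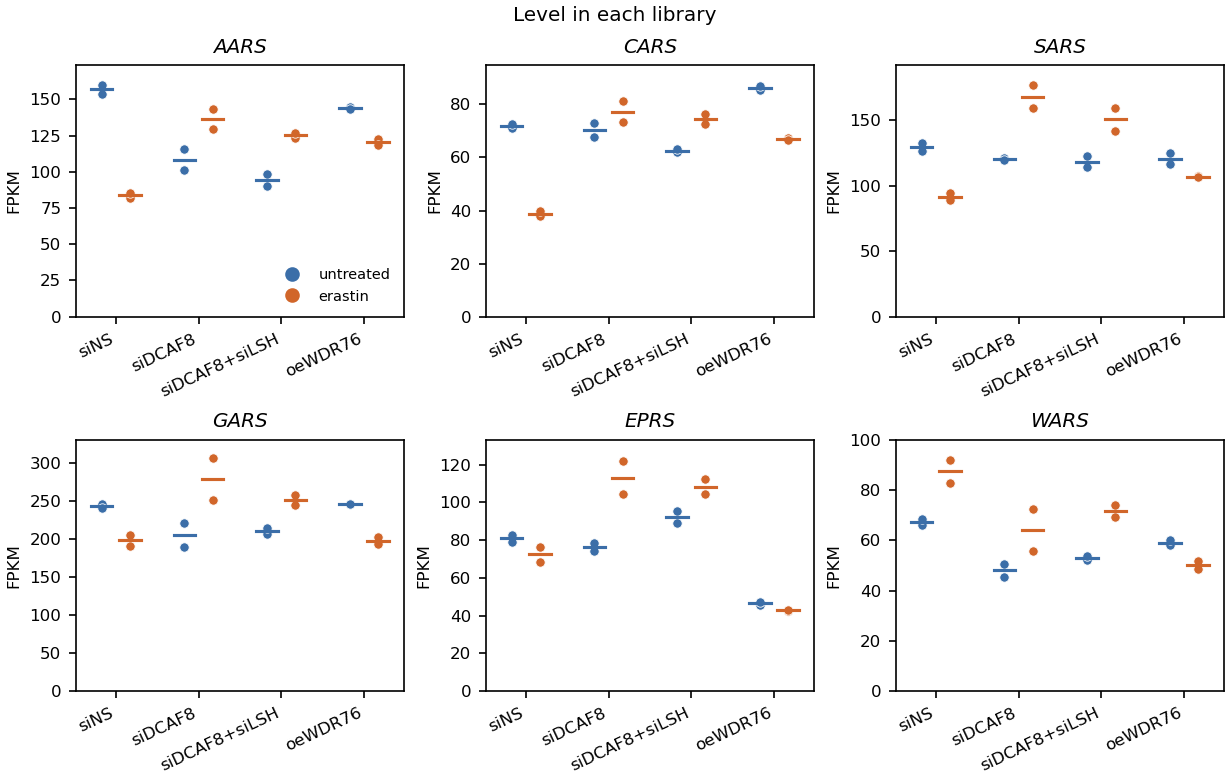
FPKM of AARS, CARS, SARS, GARS, EPRS and WARS (vertical axes) in the 16 libraries, 1 point per library with a line at the group mean, by genotype along the horizontal axis, untreated in blue and erastin in orange. AARS and CARS lie at 37.8 to 85.74 FPKM in erastin-treated siNS and at 73.19 to 143.72 FPKM in erastin-treated siDCAF8.

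The erastin response of siDCAF8 minus that of siNS was tested directly as a contrast of the 4 groups. It was higher for 12 of the 20 cytosolic members and lower for 1, and higher for 1 and lower for 1 of the 16 mitochondrial members. Over all tested genes 11% were higher and 9.84% lower, 20.8% together. The median difference was 0.38 over the cytosolic members, -0.03 over the mitochondrial ones and 0.01 over all tested genes.

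For AARS the difference in response was 1.23 (SE 0.09, limma adjusted p = 1.20e-06): in siDCAF8 it had 115.84 and 100.93 FPKM untreated and 143.72 and 129.27 FPKM with erastin, the reverse of its course in siNS. CARS had 72.84 and 67.59 FPKM untreated and 81.2 and 73.19 FPKM with erastin in siDCAF8. Its response there did not pass the test (0.13, limma adjusted p = 0.0759), but the difference from its fall in siNS was 1.01 (SE 0.08, limma adjusted p = 1.92e-06). For SARS the difference was 0.97 (SE 0.09, limma adjusted p = 6.50e-06). GARS had 245.32 and 240.62 FPKM in untreated siNS and 190.79 and 204.77 FPKM with erastin there, and its difference was 0.73 (SE 0.11, limma adjusted p = 0.000377). EPRS, TARS, NARS, IARS, YARS, DARS, LARS and MARS differed by 0.35 to 0.72 in the same direction. FARSA, the alpha subunit of the phenylalanyl enzyme, differed by -0.29 (limma adjusted p = 0.012), a call lost without siNS replicate 1, siNS/Erastin replicate 1 or siDCAF8 replicate 1 in turn, with adjusted p up to 0.0663.

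Only 2 mitochondrial enzymes were called in this contrast. LARS2 had 7.88 and 7.33 FPKM in untreated siNS and 9.83 and 9.79 FPKM with erastin. In siDCAF8 it had 11.15 and 11.11 FPKM untreated and 9.2 and 9.47 FPKM with erastin, and the difference in response was -0.56 (SE 0.09, limma adjusted p = 0.000431). PARS2 had 4.45 and 3.71 FPKM in untreated siDCAF8 and 4.65 and 4.37 FPKM with erastin. Its difference was 0.51 (SE 0.14, limma adjusted p = 0.0141), a call lost without siDCAF8 replicate 2 (limma adjusted p = 0.0612).

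The 13 members higher in this contrast included 5 of the 8 complex enzymes and 7 of the 12 other cytosolic members. Both catalytic families took part, with 6 of the 19 class I members and 7 of the 17 class II members. EPRS carries a domain of each class and was counted as class I. Of the 8 members whose printed windows hold TGATGNAA, 7 were higher, all but YARS2, with a median of 0.56. Of the 22 with a window and no match, 3 were higher and 2 lower, with a median of 0.05, and of the 6 without a window 3 were higher, with a median of 0.14. Over all tested genes 11% were higher and 9.84% lower. The share higher among all tested genes with the motif was not counted. SARS and EPRS, with differences of 0.97 and 0.72, had no match in their windows. These are descriptions of a small set in which the matched members are mostly cytosolic. All 13 higher and 2 lower calls were kept after the correction for GC content and length.

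**Figure D3:**
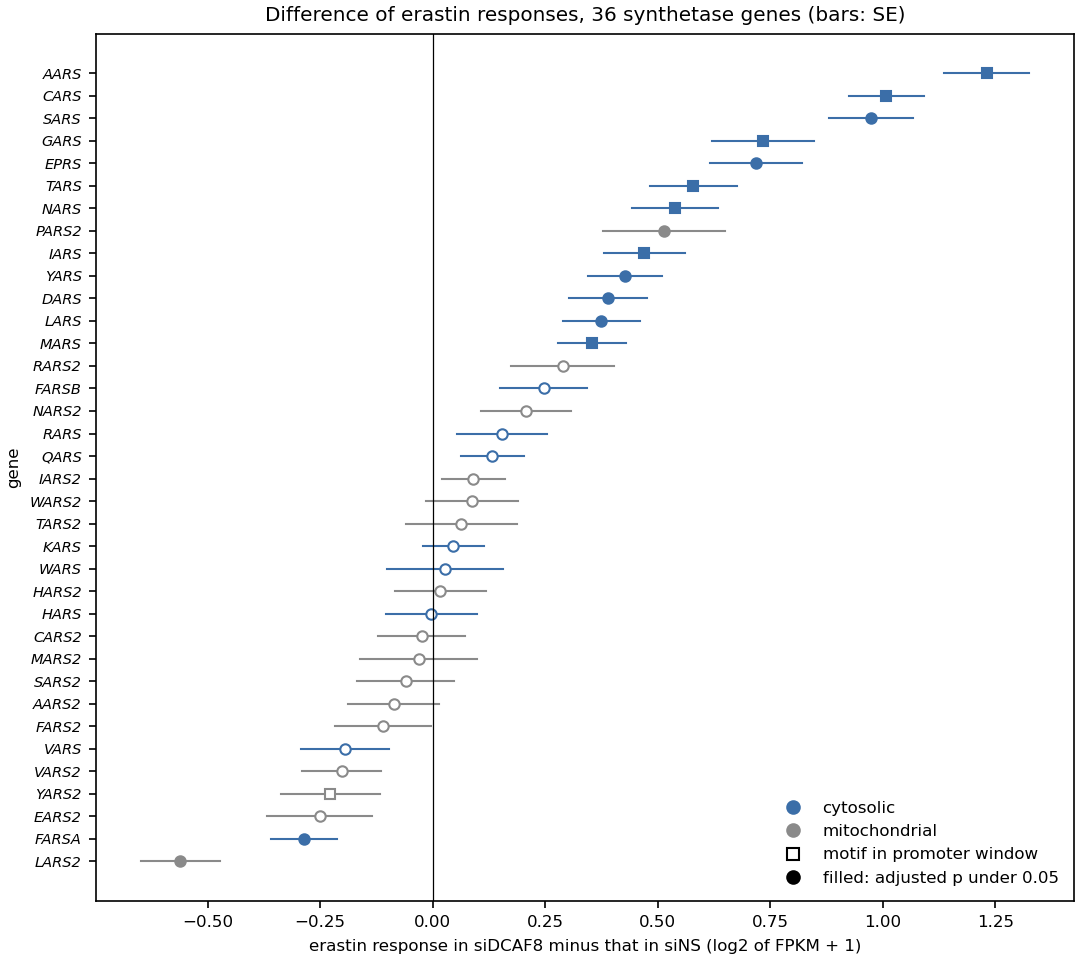
Difference between the erastin response of siDCAF8 and that of siNS, in log2 of FPKM + 1, for each member, with bars for the standard error, cytosolic members in blue, mitochondrial ones in grey, squares for members with the motif in a promoter window and filled symbols for an adjusted p under 0.05. AARS, CARS and SARS lie at 0.97 to 1.23, and the mitochondrial members lie between -0.56 and 0.51.

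In siDCAF8+siLSH cells, erastin raised 8 members and lowered none. Of the cytosolic members 7 rose, and PARS2 was the 1 mitochondrial member that did, where 10.6% of all tested genes rose and 9.54% fell, 20.2% together. At an unadjusted p under 0.05, 9 cytosolic and 2 mitochondrial members were higher, and 2 mitochondrial and no cytosolic members were lower. No share of all tested genes was counted at that threshold. The median log2 difference was 0.06 over the members and 0.01 over all tested genes.

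WARS had 52.03 and 53.67 FPKM in untreated siDCAF8+siLSH and 69.44 and 73.98 FPKM with erastin, and it rose 1.35-fold (log2 0.43, SE 0.09, limma adjusted p = 0.00329). AARS had 98.74 and 90.5 FPKM untreated and 123.69 and 126.7 FPKM with erastin, 1.32-fold higher (log2 0.40, SE 0.07, limma adjusted p = 0.000532). SARS went from 114.1 and 122.51 FPKM to 141.48 and 159.5 FPKM, 1.27-fold higher (log2 0.34, SE 0.07, limma adjusted p = 0.00171). All 3 had groups that did not overlap, which was not counted over all tested genes. PARS2 had 3.88 and 3.08 FPKM untreated and 4.38 and 4.81 FPKM with erastin (log2 0.33, SE 0.10, limma adjusted p = 0.0243). That call was lost when replicate 2 of either of these groups was left out, where its limma adjusted p was up to 0.265. CARS, GARS, EPRS and MARS rose by 0.16 to 0.25. Among refits that leave out 1 library, the count fell most without replicate 2 of siDCAF8+siLSH/Erastin or of untreated siDCAF8+siLSH. With no filter on low values 4 were called. Quantile normalization gave 8 higher and 1 lower, and the correction for GC content and length 8 higher and 2 lower.

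AARS, CARS, GARS, MARS, SARS and PARS2 fell with erastin in siNS and rose in siDCAF8+siLSH, which is 46.2% of the 13 that fell and 75% of the 8 that rose. Over all tested genes, 251 did so, 9.96% of those that fell and 21% of those that rose. AARS, EPRS, GARS, SARS and WARS rose in both siDCAF8 and siDCAF8+siLSH, which is 33.3% and 62.5% of the members that rose in each, against 18% and 31.1% of all tested genes that did. The response of siDCAF8+siLSH minus that of siNS was higher for 8 cytosolic and 3 mitochondrial members and lower for 1 mitochondrial member, LARS2, against 15.6% higher and 9.13% lower of all tested genes, 24.8% together. Median-ratio scaling gave 8 higher and 2 lower. The calls of SARS2, TARS2 and QARS were each lost in 5 or 6 of the 16 refits without 1 library and after the GC and length correction (limma adjusted p = 0.424, 0.103 and 0.234). Its values were 1.30 for AARS, 1.12 for CARS and 0.84 for SARS. It shares the siNS libraries with the contrast of siDCAF8 and siNS, for which the same genes gave 1.23, 1.01 and 0.97.

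Set directly against the response of siDCAF8, that of siDCAF8+siLSH was lower for 7 cytosolic members and higher for 1, and lower for 2 and higher for 2 mitochondrial members, where 9.24% of all tested genes were lower and 14.2% higher, 23.5% together. The members that were lower were FARSB, EPRS, RARS, TARS, NARS, IARS and LARS (log2 -0.41 to -0.24) with the mitochondrial NARS2 and IARS2. Their median GC content was 43.6%, against 61.2% for the 3 that were higher, FARSA, SARS2 and VARS2. After the correction for GC content and length none of the 12 was called, with no filter on low values 6 were, and with only the groups compared 4. Among refits without 1 library, fewer were called without siDCAF8 replicate 1, untreated siDCAF8+siLSH replicate 2, siDCAF8/Erastin replicate 1 or siDCAF8+siLSH/Erastin replicate 1. AARS, CARS and SARS were not called in this contrast.

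In oeWDR76 cells, erastin changed 2 members, both cytosolic and both lower. Over all tested genes 0.977% fell and 0.471% rose, 1.45% together. At an unadjusted p under 0.05, 7 cytosolic members were lower and 1 mitochondrial member higher. No share of all tested genes was counted at that threshold. CARS had 85.3 and 86.94 FPKM in untreated oeWDR76 and 67.51 and 66.56 FPKM with erastin. It fell 1.28-fold (log2 -0.36, SE 0.06, limma adjusted p = 0.00527), and the call was lost in 3 of the refits that leave out 1 library, those without oeWDR76 replicate 2 or either oeWDR76/Erastin library. YARS, the tyrosyl enzyme, had 109.74 and 113.23 FPKM untreated and 91.22 and 94.33 FPKM with erastin. It fell 1.20-fold (log2 -0.26, SE 0.06, limma adjusted p = 0.0344), and the call was lost without any 1 of the 4 oeWDR76 libraries or of the 2 untreated siNS libraries. The groups of both genes did not overlap, which was not counted over all tested genes. Between 0 and 5 members were called when 1 library was left out, 1 with no filter on low values and 6 when only the groups compared were fitted.

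The response of oeWDR76 minus that of siNS was higher for 3 cytosolic members and 1 mitochondrial member and lower for 1 of each, against 9.04% higher and 5.11% lower of all tested genes, 14.1% together. AARS differed by 0.64 and CARS by 0.52. The calls of SARS, PARS2 and LARS2 were lost in 5, 4 and 12 of the 16 refits without 1 library. WARS, which rose in siNS, had 58.22 and 59.95 FPKM in untreated oeWDR76 and 48.57 and 51.78 FPKM with erastin. Its difference in response was -0.61. The number of members called was 3 without siNS replicate 2, oeWDR76 replicate 2 or oeWDR76/Erastin replicate 2.

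Without erastin, messages of most mitochondrial synthetases were higher in siDCAF8 than in siNS and, compared separately, in siDCAF8+siLSH than in siNS. How many of the same members were higher in both was not counted. In siDCAF8 against siNS, 10 of the 16 mitochondrial members were higher and 1, SARS2, lower, and 6 of the 20 cytosolic members were higher and 5 lower, where 31% of all tested genes were higher and 29.9% lower, 61% together. In siDCAF8+siLSH against the same siNS libraries, 9 mitochondrial members were higher and 1 lower, and 9 cytosolic members were higher and 6 lower, where 35.9% of all tested genes were higher and 30.9% lower, 66.8% together.

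HARS, the cytosolic histidyl enzyme, whose gene overlaps HARS2 (chromosome 5, 140673904 to 140691727, minus strand), had 39.85 and 40.61 FPKM in untreated siNS. It had 67.54 and 71.53 FPKM in siDCAF8 and 71.15 and 79.44 FPKM in siDCAF8+siLSH, 1.71-fold higher (SE of log2 0.07, limma adjusted p = 1.06e-07) and 1.85-fold higher (limma adjusted p = 1.48e-08). It was also 1.82-fold higher in oeWDR76 (limma adjusted p = 9.51e-09), at 71.9 and 76.62 FPKM, so that every library of the 3 genotypes lay above those of siNS. EARS2, the mitochondrial glutamyl enzyme, had 4.99 and 4.59 FPKM in siNS and 7.5 and 7.79 FPKM in siDCAF8, 1.49-fold higher (log2 0.58, SE 0.08, limma adjusted p = 1.41e-05). FARSB had 32.38 and 31.74 FPKM in siNS and 50.76 and 57.87 FPKM in siDCAF8+siLSH. Its groups did not overlap, and it was 1.67-fold higher (log2 0.74, SE 0.07, limma adjusted p = 6.92e-08).

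AARS, GARS and WARS, which erastin raised in siDCAF8, were lower there than in siNS without erastin, at log2 -0.53, -0.25 and -0.48. MARS (-0.28) and YARS (-0.24) were lower too, and in siDCAF8+siLSH AARS was at -0.73 and YARS at -0.42. Not all members that erastin raised in siDCAF8 were lower there untreated. IARS averaged 61.7 FPKM in untreated siNS and 79.8 FPKM in untreated siDCAF8, and FARSB 32.1 and 40.4 FPKM. With erastin in both genotypes, 15 cytosolic and 9 mitochondrial members were higher in siDCAF8 than in siNS and 1 and 3 lower, where 34.8% of all tested genes were higher and 30% lower, 64.8% together. For siDCAF8+siLSH with erastin, 16 cytosolic and 9 mitochondrial members were higher than in siNS and 1 of each lower, where 39.3% of all tested genes were higher and 26.7% lower, 66% together. CARS had differences of 0.97 and 0.93 in these comparisons, which share the erastin-treated siNS libraries.

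**Figure D4:**
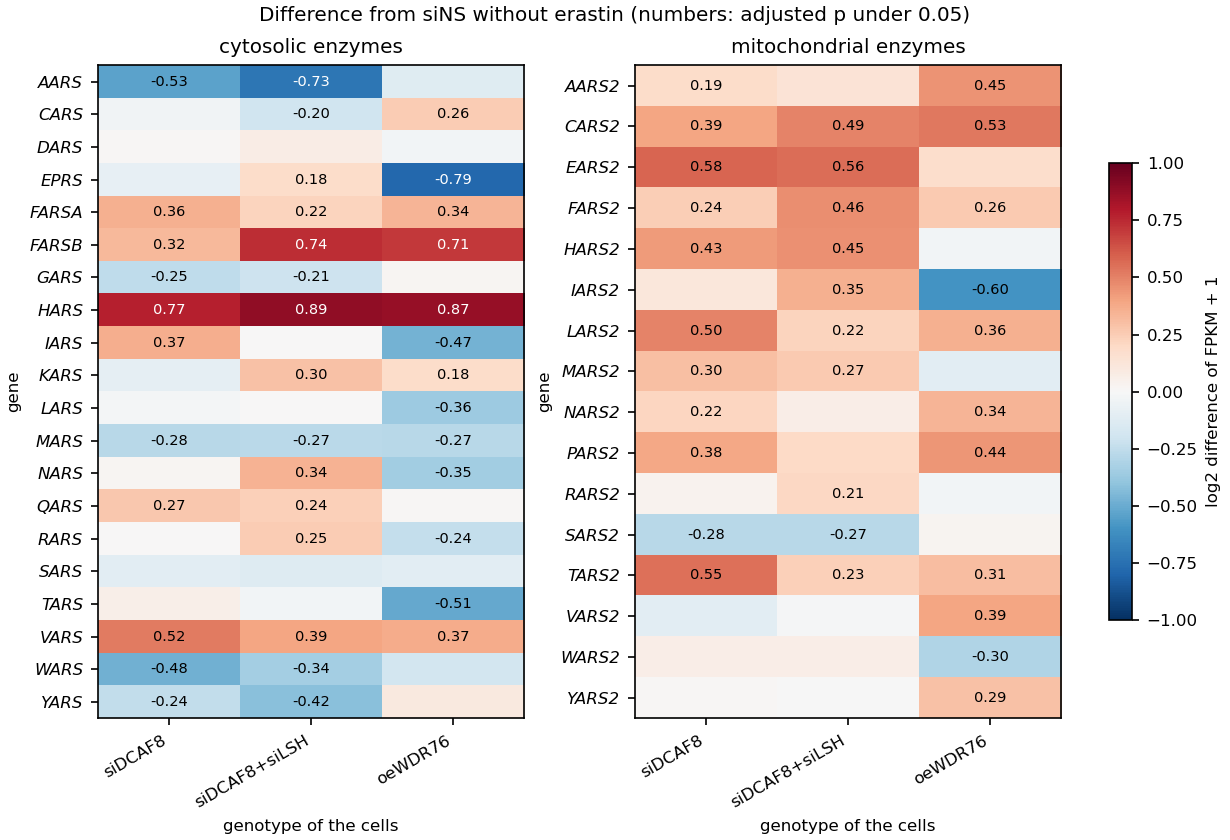
Log2 difference of FPKM + 1 between each of 3 genotypes (columns) and siNS without erastin for each member (rows), with cytosolic and mitochondrial enzymes in separate panels and a number in each cell with an adjusted p under 0.05. HARS is at 0.77 to 0.89 in all 3 columns, and EPRS is at -0.79 in oeWDR76.

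In untreated oeWDR76 against siNS, 6 cytosolic members were higher and 7 lower, and 9 mitochondrial members were higher and 2 lower, where 41.6% of all tested genes were higher and 32% lower, 73.6% together. EPRS had 82.77 and 79.28 FPKM in siNS and 45.6 and 47.36 FPKM in oeWDR76. It was 1.73-fold lower (log2 -0.79, SE 0.07, limma adjusted p = 3.78e-08), and its value was -0.64 after the correction for GC content and length. HARS was at 0.87 before and 0.63 after that correction. The 15 members that were higher had a median GC content of 54.4% and the 9 that were lower 43.6%. The correction left 8 of the 15 higher members called, turned the sign of 2 others, FARSA and FARS2, and kept all 9 lower ones, with 8 higher and 16 lower in all. Quantile normalization gave 12 higher and 16 lower and turned KARS. With erastin, 9 cytosolic and 9 mitochondrial members were higher and 8 and 3 lower, where 45.2% of all tested genes were higher and 31% lower, 76.2% together. The median log2 difference of all tested genes was 0.11 there. After the GC and length correction 10 were higher and 15 lower, and after quantile normalization 12 and 14. Shares of all tested genes under these alternatives were not counted.

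Between the cells labelled siDCAF8+siLSH and siDCAF8, members were called in both directions, 38.9% of them without and 38.9% with erastin. In both cases this was below the share of all tested genes. Without erastin, 5 cytosolic and 2 mitochondrial members were higher in siDCAF8+siLSH than in siDCAF8 and 5 and 2 lower, where 26.4% of all tested genes were higher and 21.7% lower, 48.2% together. FARSB differed by 0.41, KARS, the lysyl enzyme, by 0.39 and IARS, the isoleucyl enzyme, by -0.36. The number called went from 14 to 7 without siDCAF8 replicate 1 and to 6 without siDCAF8+siLSH replicate 2, and to 9 with only the groups compared. With erastin, 3 cytosolic and 4 mitochondrial members were higher and 4 and 3 lower, where 30.4% of all tested genes were higher and 19.3% lower, 49.7% together. IARS differed by -0.63. Median-ratio scaling gave 4 higher and 11 lower, quantile normalization 4 and 12 and the GC and length correction 4 and 13, and without siDCAF8+siLSH/Erastin replicate 2, 9 members were called. DCAF8 itself was 0.37 higher in siDCAF8+siLSH than in siDCAF8 without erastin and 0.54 higher with it, and the part of this in the synthetase values was not tested.

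Genes that work with the synthetases were read from lists. Of 14 cytosolic charging partners, among them the complex scaffolds and elongation factors, 2 rose and 1 fell with erastin in siNS, against 15.1% and 22.4% of all tested genes, and 6 rose in siDCAF8, against 18.3%. In the difference between these responses 2 of the 14 were higher, close to the share of 11% of all tested genes. XPOT, which exports transfer RNAs from the nucleus, had 111.76 and 103.02 FPKM in untreated siNS and 89.37 and 95.16 FPKM with erastin, and in siDCAF8 77.22 and 81.58 FPKM untreated and 116.16 and 110.13 FPKM with erastin. Its difference in response was 0.72 (limma adjusted p = 3.93e-05), and that of SEPSECS, which makes selenocysteinyl-tRNA, was 0.41 (limma adjusted p = 0.0328). Of 14 mitochondrial charging and translation partners, 2 rose and 1 fell in siNS. In siDCAF8 2 rose and 4 fell, where 18.3% of all tested genes rose and 22.5% fell. Only ELAC2, which trims the 3′ end of transfer RNAs, was called in the difference (log2 -0.29, limma adjusted p = 0.0155). Of all tested genes 11% were higher and 9.84% lower in that difference. Without erastin, 11 of these 14 were higher in siDCAF8 and 13 in siDCAF8+siLSH than in siNS, and none lower, where 31% and 35.9% of all tested genes were higher.

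The amino acid response list holds 26 genes known as GCN2 and ATF4 pathway members or targets. With erastin 18 fell and none rose in siNS, 12 rose and 2 fell in siDCAF8, 10 fell and none rose in oeWDR76 and 16 rose and none fell in siDCAF8+siLSH. Over all tested genes 22.4% fell in siNS, 18.3% rose in siDCAF8, 0.977% fell in oeWDR76 and 10.6% rose in siDCAF8+siLSH. The list's median log2 differences were -0.43, 0.15, -0.31 and 0.33 in that order, against -0.03, -0.02, 0.01 and 0.01 over all tested genes. The siDCAF8 response was higher than the siNS response for 22 of the 26 and lower for none, against 11% and 9.84% of all tested genes. The list already differed from siNS in untreated cells. In siDCAF8 13 were lower and 4 higher, against 29.9% and 31% of all tested genes. In siDCAF8+siLSH 20 were lower and 3 higher, against 30.9% and 35.9%. The list's median log2 differences there were -0.19 and -0.52. SLC3A2, the shared heavy chain of the cystine and large neutral amino acid transporters, had 101.72 and 107.81 FPKM untreated and 54.85 and 59.4 FPKM with erastin in siNS. In siDCAF8 it had 73.71 and 67.86 FPKM untreated and 92.31 and 92.06 FPKM with erastin, and its difference in response was 1.24 (limma adjusted p = 4.73e-07). The cysteine-producing enzyme gene CTH went from 9.3 and 8.36 FPKM to 3.84 and 4.19 FPKM in siNS and from 10.3 and 8.15 FPKM to 21.43 and 16.63 FPKM in siDCAF8. Its difference was 1.94 (limma adjusted p = 1.20e-06).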

How the data were processed

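RNA was sequenced from 16 libraries of HT-1080 cells, 2 in each of 8 groups. The authors deposited an FPKM value for each gene in each library, given to 2 decimals. The submitters' processing notes name StringTie and the GRCh38 build, and which aligner, annotation release and versions were used is not given in the sources. All columns were matched to samples by name, and 0 columns were left unmapped. FPKM are not counts, so limma 3.58.1 (R 4.3.3) was run on log2(FPKM + 1): 8 group means on 8 residual degrees of freedom, a trended prior, 16 two-sided contrasts and Benjamini-Hochberg adjustment over the 11260 genes averaging at least 1 FPKM, called at an adjusted p under 0.05. All 36 members passed that filter. The pipeline was tested on simulated data. Whole-read steps were read with a tolerance of 0.15 reads, and 80.7% to 89.6% of low values lay on them. Fold changes are on the FPKM + 1 scale. Named with every library's value were the 4 called members of largest absolute difference in each of the erastin contrasts of siNS, siDCAF8 and siDCAF8+siLSH and in the difference between the siDCAF8 and siNS responses, the 2 largest in the erastin contrast of oeWDR76 and in each untreated comparison with siNS, and the 2 mitochondrial enzymes of largest difference between the responses. Outside that rule, WARS in oeWDR76 was chosen after its values were seen. Members and lists were chosen with earlier results of these data known. Alternatives were a pseudocount of 0.1, no filter, a mean of at least 5 FPKM, median-ratio scaling, quantile normalization, a replicate block, only the groups compared, GC content and length correction and leaving out each library. Leaving out the 4 oeWDR76 libraries was added after seeing the data. GC content was known for all 36 members.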

Additional observations from a re-analysis of the deposited data

Results flagged for a closer look

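Members whose erastin response differed between genotypes, by the interaction contrast in limma, are listed with that difference in log2(FPKM + 1). Between siDCAF8 and siNS, the response was higher for AARS (1.23), CARS (1.01), SARS (0.97), GARS (0.73), EPRS (0.72), TARS (0.58), NARS (0.54), PARS2 (0.51), IARS (0.47), YARS (0.43), DARS (0.39), LARS (0.37) and MARS (0.35), and lower for LARS2 (-0.56) and FARSA (-0.29). Between oeWDR76 and siNS it was higher for AARS (0.64), PARS2 (0.53), CARS (0.52) and SARS (0.32), and lower for WARS (-0.61) and LARS2 (-0.28). The calls of LARS2, SARS and PARS2 there were lost in 12, 5 and 4 of 16 refits without 1 library, with limma adjusted p up to 0.175, 0.122 and 0.0648. SARS was also lost under 2 other alternatives, no filter and median-ratio scaling, and LARS2 under 1, only the groups compared.

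Between siDCAF8+siLSH and siNS it was higher for AARS (1.30), CARS (1.12), SARS (0.84), PARS2 (0.72), GARS (0.55), MARS (0.49), YARS (0.42), EPRS (0.39), TARS2 (0.38), SARS2 (0.32) and QARS (0.22), and lower for LARS2 (-0.48). SARS2 was lost in 6 of the refits without 1 library and 6 other alternatives, TARS2 in 6 and 3, QARS in 5 and 4 and EPRS in 1 and 0. After the GC and length correction SARS2 was at 0.117 and QARS at 0.104. Between siDCAF8+siLSH and siDCAF8 it was higher for VARS2 (0.44), SARS2 (0.38) and FARSA (0.25), and lower for FARSB (-0.41), NARS2 (-0.36), EPRS (-0.33), RARS (-0.32), TARS (-0.31), NARS (-0.28), IARS (-0.27), IARS2 (-0.25) and LARS (-0.24). None of these 12 was called after the GC and length correction, and all but FARSB and VARS2 lost the call in 2 to 12 of the refits without 1 library. The contrasts against siNS share its 4 libraries.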

How the results depend on the processing

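Counts are members called, with no share of all tested genes counted under the alternative fits. When 1 library was left out, the count ranged from 9 to 15 for erastin in siNS, 14 to 22 in siDCAF8, 0 to 5 in oeWDR76 and 4 to 9 in siDCAF8+siLSH. Against siNS it ranged from 17 to 22 without and 25 to 29 with erastin for siDCAF8, 23 to 25 and 23 to 29 for oeWDR76, and 18 to 25 and 23 to 27 for siDCAF8+siLSH. For siDCAF8+siLSH against siDCAF8 the ranges were 6 to 16 without and 9 to 14 with erastin. For the differences of responses they were 14 to 17 (siDCAF8 and siNS), 3 to 6 (oeWDR76 and siNS), 9 to 12 (siDCAF8+siLSH and siNS) and 3 to 15 (siDCAF8+siLSH and siDCAF8). With no filter, 1 member was called for erastin in oeWDR76 (2 in the reported fit), 4 for erastin in siDCAF8+siLSH (8) and 6 for the response of siDCAF8+siLSH minus that of siDCAF8 (12). With only the groups compared, these were 6 for erastin in oeWDR76, 9 for siDCAF8+siLSH against siDCAF8 without erastin (14) and 4 for that response difference. The GC and length correction left 0 called there, and the cause of the other shifts was not tested. That correction turned FARSA for erastin in siDCAF8 to 0.002 and in the same response difference to -0.017, and in untreated oeWDR76 against siNS FARSA to -0.092 and FARS2 to -0.069. With erastin it turned FARSA to -0.199, QARS to -0.103, SARS to -0.069, SARS2 to -0.202 and YARS2 to -0.056. Quantile normalization turned KARS to -0.067 without erastin and, with it, KARS to -0.079, QARS to -0.101 and SARS to -0.034. The labels do not say whether replicate numbers pair the libraries, and the reported fit did not pair them. Of 28 group pairs, 7 had deviations of same-numbered libraries correlated over 0.1 (range -0.208 to 0.389), which does not decide this. With the replicate block, the response of siDCAF8 minus that of siNS had 16 members called against 15, and erastin in siNS 15 in both fits. Over single members, 266 of 4368 refits without a library and 159 of 2386 other alternatives lost a call, and 13 of the latter reversed. PARS2 fell outside the filter at a mean of 5 FPKM.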
